A study of Mus musculus with 4 samples.

Results

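Semaphorins are the cell-surface and secreted ligands of one guidance system, and neuropilins and plexins are their receptors. The 32 genes described here are all those on the array whose symbol in the platform annotation starts with Sema and a digit or with Plxn, or is Nrp1 or Nrp2, out of 18193 named genes. They comprise 20 semaphorins, 2 neuropilins, 9 plexins and 1 antisense RNA at a plexin gene, Plxna4os1, and are read by 79 probe sets. RNA from muscle dissected from mouse embryos at E13.5 (days of embryonic age) was hybridised to Affymetrix arrays, 1 array for each of 4 groups. The groups were limb muscle from wild-type (WT) BALB/c embryos, limb muscle from BALB/c embryos null for the myogenic factor gene Myod1 (MyoD-null), back muscle from wild-type BALB/c embryos, and back muscle from BALB/c embryos labelled Myf5 null, after the related myogenic factor. All 4 groups thus share strain and age. The sources used here do not give the makeup of the mutant alleles, the number of embryos behind each RNA or where the probes lie relative to a deleted part.

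Secreted class 3 semaphorins mostly bind a neuropilin, which holds the ligand, while a plexin carries the signal into the cell. The membrane-bound semaphorins of classes 4 to 7 mostly bind plexins directly. Plexins act on small GTPases and the cytoskeleton, so that growth cones of axons, and also migrating neural crest and vessel cells, turn away from or towards the source. In the embryonic limb this system is known for setting where motor axons enter, how tightly they bundle and which branch they take.

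Each group had a single array, which leaves the values without a replicate error and the text without p-values; each difference is one between 2 arrays. Signals are probe-set intensities scaled to one trimmed mean per array. A signal under 100 was set to 100 before ratios were formed, so a ratio against it is a bound. A gene was called when it differed at least 2-fold with the brighter array at 200 or more. Over all genes, probe sets of one gene differed in their log2 ratios with a median SD of 0.35 in the limb pair. It was 0.32 in the back pair and 0.35 in WT limb against WT back. For the members alone it was 0.57 (11 genes), 0.30 (12 genes) and 0.54 (10 genes) in the same order. Such an SD measures probes and not animals. Myod1 was 688 in the MyoD-null limb against 1438 in WT limb. Myf5 was 583 in its own null-labelled array against 508 in the WT back, not lower, so that array is named by its label only. A probe outside the deleted part would check nothing. All 12 listed skeletal muscle markers, such as Myog and Acta1, were at 100 or more in every array, so the pieces held muscle. They also held cartilage, nerve and vessel RNA. In such bulk samples, fewer cells of a type and less RNA per cell cannot be told apart.

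All 32 members reached the floor of 100 in at least 1 array, as did 15809 of the 18193 genes. With a floor of 200, 12461 genes reached it in at least 1 array. Detection calls were not used, so a signal past a cutoff does not by itself show that RNA was present. Of the 32 members, 31 reached 200 in at least 1 array, 26 were at 100 or more in all 4 arrays and 23 at 200 or more in all 4. The exception was Sema3b, a secreted semaphorin, which was 119 in WT limb, 127 in the MyoD-null limb and under 100 in both back arrays. The highest array was under 2-fold of the lowest for 20 of the 32 members (62.5%), against 76.7% of the 15809 genes that reached 100 anywhere. Among those 20 were both neuropilins and 7 of the plexins. The other 12 were Sema7a, Sema5b, Plxnb3, Sema4c, Sema3e, Sema4b, Sema3f, Sema6b, Sema4a, Plxna2, Sema5a and Plxna4os1, from the widest range to the narrowest. Thus 9 were ligands and 2 were receptors.

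**Figure D1:**
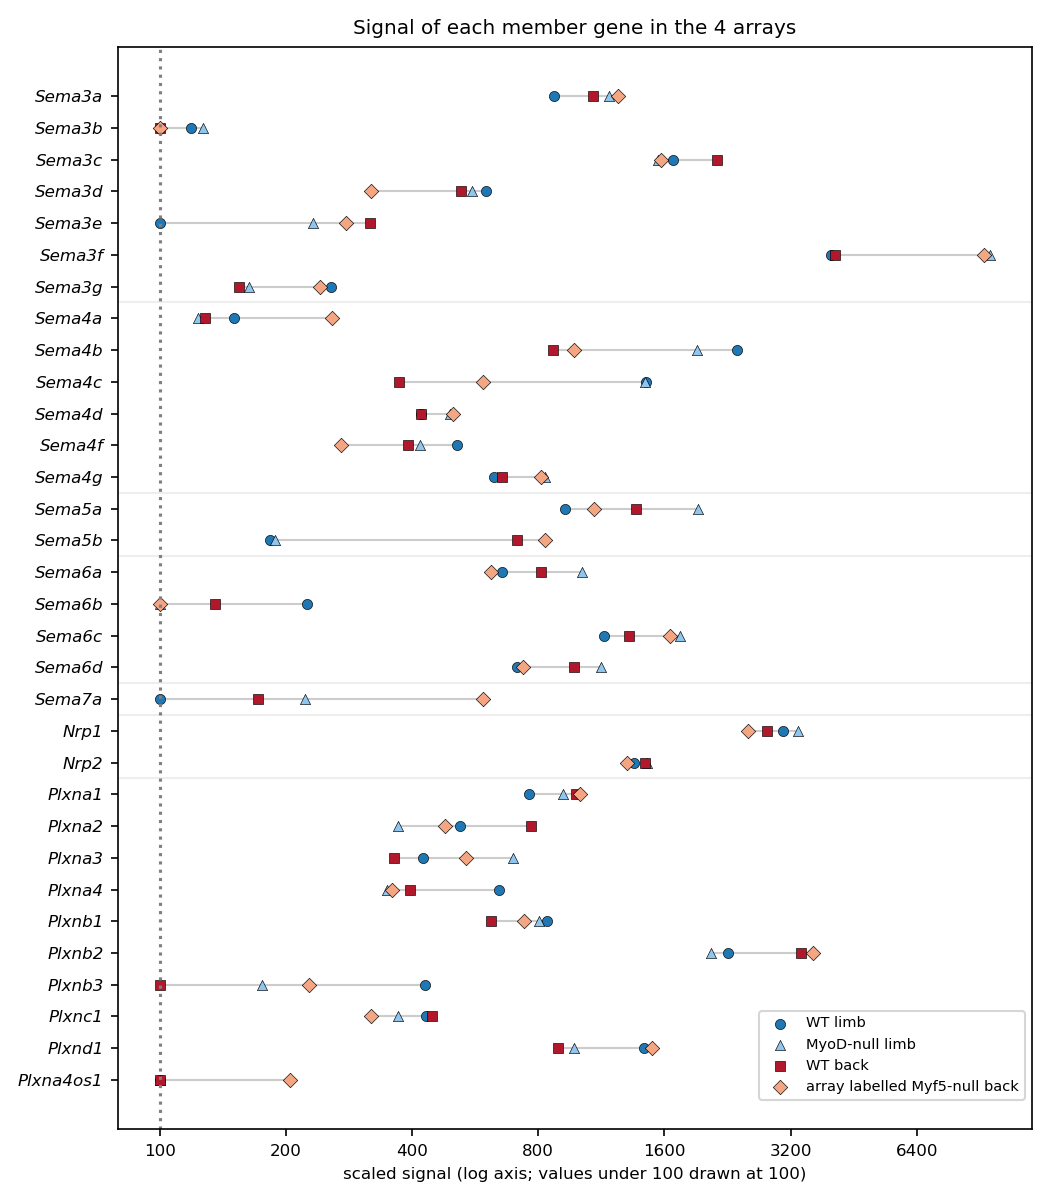
Scaled signal (log axis) of the brightest probe set of each member in the 4 arrays, 1 point per array, grouped by class from secreted semaphorins to plexins. Signals under 100 are drawn at the dotted line at 100. Nrp1, Nrp2 and Plxna1 lie close together across arrays, while Sema4c, Sema5b, Sema7a and Plxnb3 spread widely. Levels of different genes are read by different probes and are not comparable.

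In the MyoD-null limb against WT limb, the question set by the labels is how the limb piece differs without MyoD. Of 31 members at 100 or more in either array, 4 were called higher: Sema3e, Sema3f, Sema5a and Sema7a, all of them ligands. That is 12.9% of the members, against 2.30% of all 14496 genes tested. Called lower were Plxnb3 and Sema6b, which is 6.45% of the members against 5.19% of all genes. Over all genes the split was 334 higher and 753 lower, and 451 and 538 after quantile normalization. The other 25 were called neither way, and the members' median log2 ratio was 0.04, against -0.04 over all genes. Of the called ligands, only Sema5a was above 100 in both arrays in a probe set not of the _x_at kind, whose probes can match other genes, and its call was lost under 4 of the 8 alternative processings. With each gene taken as the median over its probe sets, 0 members were called higher and 1 lower.

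In the back array labelled Myf5-null against WT back, 5 of 31 members were called higher and 0 lower. The 5 were Sema3f, Sema4a, Sema7a, Plxnb3 and Plxna4os1. Their share of 16.1% stands against 5.50% of 14684 genes tested called higher, and the 0 called lower against 2.48%. Over all genes 808 were higher and 364 lower, and 519 and 516 after quantile normalization. The median log2 ratio was 0.17 for the members and 0.05 for all genes. Only Sema3f and Sema7a among the 5 were called after each of quantile normalization, loess and a floor of 200. The Sema3f call was lost without shared-probe sets. Over the 8 alternatives it was kept in 6, as was that of Plxnb3, and that of Sema7a in 7. As medians over probe sets, 1 member was called higher, Plxna4os1, which is read by a single probe set.

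In WT limb against WT back, a comparison of body regions, Sema4b, Sema4c and Plxnb3 were called higher and Sema3e and Sema5b lower, among 31 members. The shares were 9.68% higher against 5.30% of 14605 genes, and 6.45% lower against 3.50%. The members' median log2 ratio was -0.03, against 0.04 over all genes. When both limb arrays were set against both back arrays, so that each region had a mutant as well as a wild type, Sema4c alone was at least 2-fold higher in every limb array than in every back array, and Sema5b alone at least 2-fold lower. These are 1 of 32 members each way, where 0.462% of 15809 genes separated that way upwards and 0.493% downwards. By any amount, both limb arrays lay above both back arrays for 7 members and below them for 4, against 17.1% and 18.3% of all genes. That makes 21.9% and 12.5% of the members, and 21 members overlapped between the regions.

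**Figure D2:**
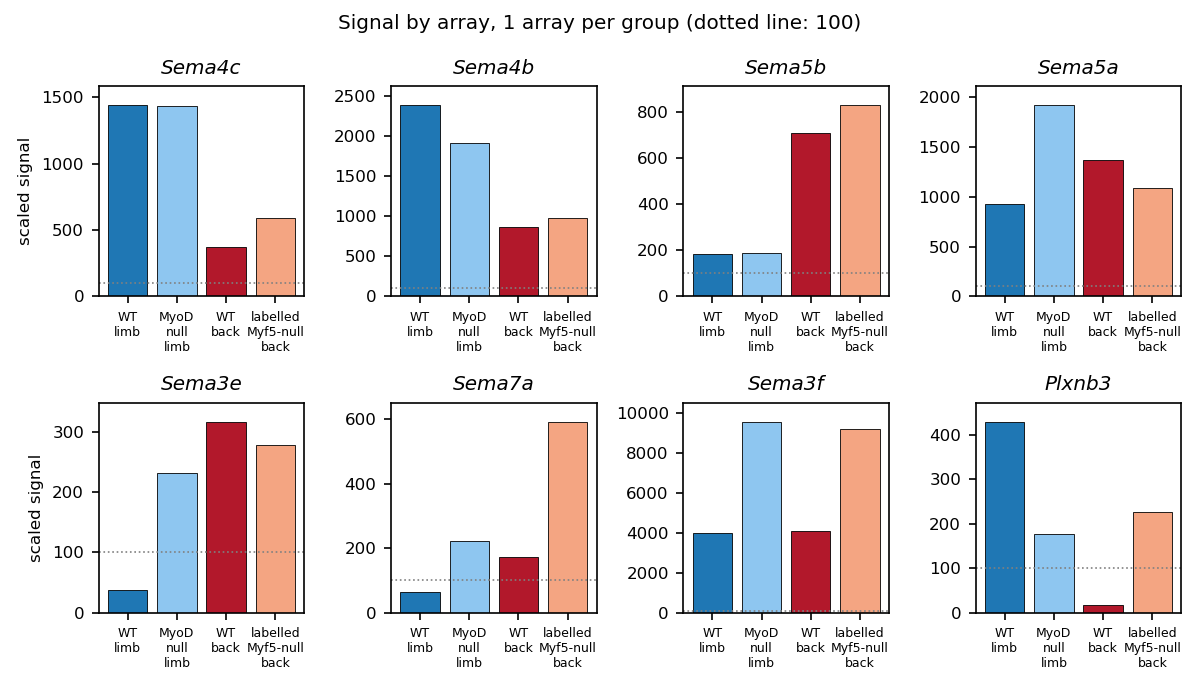
Bars show the scaled signal, from 0, of 8 members in each of the 4 arrays, with 1 array per bar and so no error bar. The dotted line marks 100, below which a ratio is given as a bound. Sema4c and Sema4b are high in both limb arrays, Sema5b in both back arrays, Sema7a and Sema3f in each mutant array over its wild type, and Sema5a in the MyoD-null limb.

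Class 3 semaphorins are secreted. Sema3a, the best-known repellent of motor and sensory axons, was 870 in WT limb, 1178 in the MyoD-null limb, 1080 in the WT back and 1240 in the back array labelled Myf5-null. Each mutant was thus slightly above its wild type, by log2 ratios of 0.44 and 0.20, short of a call. Sema3c, which also acts on neural crest and vessels of the heart's outflow tract, was 1675, 1546, 2134 and 1570 in the same order. Its dimmer probe set was under 100 in WT limb and 194, 240 and 152 in the others, so WT limb was at least 2.40-fold below WT back, past the call rule, and the limb log2 ratio was 0.95, opposite to the -0.12 of the brightest one. Sema3d was 601, 555 and 523 in the first 3 arrays and 319 in the back array labelled Myf5-null, a log2 ratio of -0.71 against WT back. That was the lowest ratio of any member in the back pair, and it too was short of a call. Sema3g, a semaphorin of vessels, was 256, 164, 154 and 242 in the order WT limb, MyoD-null limb, WT back and labelled Myf5-null.

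Sema3e, which acts on Plxnd1 in vessels and axons, stood apart in WT limb. Its brightest probe set was under 100 there, but 232 in the MyoD-null limb, 317 in the WT back and 278 in the back array labelled Myf5-null. MyoD-null limb was therefore at least 2.32-fold higher than WT limb, and WT back at least 3.17-fold higher than WT limb, both resting on the one WT limb reading. A second probe set was under 100 in WT limb too, and 104, 184 and 217 in the other arrays. It repeated the order of limb and back, with a back log2 ratio of 0.24 against -0.19, but not the difference within the limb pair, where its log2 ratio was 0.06.

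Sema3f, a secreted ligand of Nrp2, had the highest ratio in the MyoD-null limb of any member measured at 100 or more on both sides. Its signal was 4004 in WT limb and 9587 in the MyoD-null limb, a log2 ratio of 1.26, and 4092 in the WT back and 9229 in the back array labelled Myf5-null, a ratio of 1.17. Both wild types were thus nearly equal, and so were both mutants. The probe set is of the kind whose name (ending _x_at) marks probes that can match other genes. Its remaining probe sets did not follow: one was 424, 415, 279 and 335, and one 317, 440, 358 and 332, in the order WT limb, MyoD-null limb, WT back and labelled Myf5-null. Without shared-probe sets the limb log2 ratio of Sema3f was -0.03, the reverse sign, and the back ratio 0.27.

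By position in the mouse genome, 4 of these ligand genes lie on chromosome 5, in the order Sema3d, Sema3a, Sema3e and Sema3c. In the MyoD-null limb Sema3e was called higher and Sema3a was above 0, while Sema3d and Sema3c each had a log2 ratio of -0.12. Over the 7 class 3 genes, 2 were called higher and 0 lower in the MyoD-null limb, against 2.30% and 5.19% of all genes, with a median log2 ratio of 0.10. One of the 2 was Sema3f, whose call was lost without shared-probe sets.

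Class 4 semaphorins span the membrane and signal mainly through B plexins. Sema4c, which has been studied in myogenic differentiation and as a ligand of Plxnb2, was 1442 in WT limb and 1435 in the MyoD-null limb, against 373 in the WT back and 590 in the back array labelled Myf5-null. The limb arrays were nearly equal and both lay above both back arrays. The ratio of WT limb to WT back was 3.87-fold, and the lowest limb array was 2.43-fold above the highest back array. Sema4c has a single probe set, and its region call held under each alternative run, with mean log2 ratios of both limb over both back arrays between 1.43 and 1.62. In the back pair its log2 ratio was 0.66, not called.

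Sema4b followed the same regional order. It was 2385 in WT limb and 1909 in the MyoD-null limb against 868 in the WT back and 976 in the back array labelled Myf5-null. WT limb was 2.75-fold above WT back, and the lowest limb array was 1.96-fold above the highest back array, just short of the 2-fold rule. Its other probe set was under 100 in every array, and as a median over both probe sets the log2 ratio was 0.73.

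Sema4f was the third of the class with both limb arrays above both back arrays. Its brightest probe set was 511, 418, 392 and 271 in the order WT limb, MyoD-null limb, WT back and labelled Myf5-null. A second probe set was 474, 221 and 162 in the first 3 and under 100 in the last. By that probe set Sema4f was 2.93-fold higher in WT limb than in WT back and 2.15-fold lower in the MyoD-null limb. Both probe sets gave log2 ratios below 0 in each mutant, between -1.10 and -0.29.

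The remaining class 4 genes differed little between regions. Sema4d, a ligand of Plxnb1 whose dimmer probe sets were at most 107, was 420 in WT limb, 493 in the MyoD-null limb, 419 in the WT back and 500 in the back array labelled Myf5-null. Sema4g was 629, 832, 655 and 812 in that order, again with each mutant above its wild type, by log2 ratios of 0.40 and 0.31. Sema4a was 150, 123 and 128 in the first 3 arrays and 258 in the last. Its back ratio of 2.02-fold passed the rule narrowly, in a probe set with shared probes, and was lost under 6 of the 8 alternatives. Over the class, 5 of 6 genes had a WT limb to WT back log2 ratio above 0, that of Sema4d being 0.00 when rounded, with a median of 0.31.

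The window before the start of Sema4c is shown because this gene separated limb from back most steadily. Of 250 bases upstream of the start site in RefSeq, E-boxes (CANNTG), the motif class to which MyoD and Myf5 bind, are in capitals here and in the windows below. This is one of 2 start sites listed for the gene, on the minus strand of GRCm38.p6 at chr1:36558382-36558631.
Sema4c: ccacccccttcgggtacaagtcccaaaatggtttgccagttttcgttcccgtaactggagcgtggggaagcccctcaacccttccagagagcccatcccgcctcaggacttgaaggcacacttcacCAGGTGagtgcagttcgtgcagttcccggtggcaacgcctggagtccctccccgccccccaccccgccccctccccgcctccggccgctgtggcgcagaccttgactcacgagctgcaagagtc
It holds 1 E-box, CAGGTG, whose first base lies 124 bases before the start site, while the window of the other start site holds 0.

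Class 5 semaphorins carry thrombospondin repeats outside the cell and can attract or repel axons. Sema5a differed within the limb pair. Its brightest probe set was 929 in WT limb and 1922 in the MyoD-null limb, against 1369 in the WT back and 1086 in the back array labelled Myf5-null. MyoD-null limb was the highest of the 4 arrays and WT limb the lowest. The second bright probe set gave 770, 1707, 816 and 769 in that order, so the limb ratios were 2.07-fold and 2.22-fold. Dimmer probe sets went the other way in the limb pair, at 204 in WT limb against 108 in one and 141 against under 100 in the other. The former was under 100 in WT back and 210 in the back array labelled Myf5-null, at least 2.10-fold higher, opposite to the brightest one. The limb log2 ratio of the brightest probe set was 1.05, and the call ended after quantile normalization, loess or a pseudocount of 100, and as a median over probe sets, where the ratio was 0.28.

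Sema5b separated the regions the opposite way to Sema4c. It was 184 in WT limb and 189 in the MyoD-null limb, against 711 in the WT back and 832 in the back array labelled Myf5-null. Both back arrays were at least 3.77-fold above both limb arrays, a larger gap than for any other member. The second probe set of Sema5b did not show it, at 305, 194, 174 and 278 in the order WT limb, MyoD-null limb, WT back and labelled Myf5-null. As a median over both, the log2 ratio of WT limb over WT back was -0.57 and the call was lost.

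The windows of Sema5a and Sema5b each lack an E-box, and that of Sema5a, whose brightest 2 probe sets were both called in the limb pair, is shown. It lies on the plus strand at chr15:32244563-32244812 and is rich in G and C, which make up 72.0% of its bases.
Sema5a: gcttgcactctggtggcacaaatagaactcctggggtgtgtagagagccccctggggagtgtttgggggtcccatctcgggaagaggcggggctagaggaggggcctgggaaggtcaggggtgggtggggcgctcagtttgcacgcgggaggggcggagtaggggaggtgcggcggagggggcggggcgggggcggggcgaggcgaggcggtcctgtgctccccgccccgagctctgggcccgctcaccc
That no CANNTG is found in this window says only that these letters are absent from it.

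Class 6 semaphorins span the membrane and pair mainly with A plexins. Sema6a was 657 in WT limb, 1020 in the MyoD-null limb, 813 in the WT back and 618 in the back array labelled Myf5-null. Sema6d was 711, 1132, 975 and 735 in that order. In both genes MyoD-null limb was the highest array, with log2 ratios of 0.63 and 0.67 in the limb pair and -0.40 and -0.41 in the back pair, all short of a call. A second probe set of Sema6a, at 241 against 117, gave -1.05 in the limb pair and 0.27 in the back pair, the opposite sign in each. The dimmer probe sets of Sema6d, all under 200, also disagreed with its brightest one. Their limb log2 ratios were -0.55, 0.35 and -0.32, and those with a back ratio gave 0.98 and 0.43, both of them bounds.

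Sema6b was 225 in WT limb and 136 in the WT back and under 100 in both mutant arrays. It was at least 2.25-fold lower in the MyoD-null limb, a call that ended with a floor of 200 or a pseudocount of 100, since its signals lie close to the floor. Sema6c was 1149, 1738, 1316 and 1653 in the order WT limb, MyoD-null limb, WT back and labelled Myf5-null, so each mutant was above its wild type without reaching 2-fold. A dimmer probe set of Sema6c gave another picture. It was 426 in WT limb, under 100 in the MyoD-null limb and in WT back, and 295 in the back array labelled Myf5-null. That makes it at least 4.26-fold lower in the MyoD-null limb and at least 2.95-fold higher in the back array labelled Myf5-null.

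Sema7a, the semaphorin held to the membrane by a lipid anchor, binds integrins and Plxnc1. It was under 100 in WT limb and 222 in the MyoD-null limb, and 172 in the WT back and 592 in the back array labelled Myf5-null. Each mutant was above its own wild type, by at least 2.22-fold in the limb and by 3.44-fold in the back, the highest back ratio among members measured at 100 or more on both sides. The second probe set of Sema7a was under 100 in all 4 arrays and bears on neither ratio. The call in the limb was lost with a floor of 200 or a pseudocount of 100, and both calls were lost as a median over the probe sets.

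Sema7a is one of 6 members with the E-box variant CAGCTG, a sequence MyoD is known to favour, in a window, and it is shown because it was called in both mutants. The window lies on the plus strand at chr9:57939862-57940111, and its E-box starts 193 bases before the start site.
Sema7a: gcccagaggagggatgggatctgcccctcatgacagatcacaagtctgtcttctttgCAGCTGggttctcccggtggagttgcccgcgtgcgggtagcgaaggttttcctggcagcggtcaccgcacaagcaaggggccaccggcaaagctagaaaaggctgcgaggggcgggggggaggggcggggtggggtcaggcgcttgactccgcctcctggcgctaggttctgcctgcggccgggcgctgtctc
The match describes the letters of the window and is not a measured binding site.

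The neuropilins, which hold class 3 semaphorins and also vascular growth factors, were among the most even members. Nrp1, the receptor part for Sema3a, was 3074 in WT limb, 3332 in the MyoD-null limb, 2808 in the WT back and 2536 in the back array labelled Myf5-null. Its largest ratio between any mutant and its wild type was -0.15 on the log2 scale. The dimmer probe sets of Nrp1 gave limb log2 ratios from -0.02 to 0.67. They also reversed the region order: WT limb over WT back was 0.13 by the brightest probe set but -0.19, -0.85 and -0.88 by the others. One of these, at 230, 284, 421 and 554, had a back log2 ratio of 0.40. Nrp2, the receptor part for Sema3f, was 1357, 1453, 1434 and 1305 in the same order. One of its other probe sets was 1174 in WT limb and 843 in the MyoD-null limb, a log2 ratio of -0.48, with 0.06 in the back pair, and another gave 0.05 there, against -0.14. None of its probe sets was called.

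Class A plexins carry the signal of class 3 and class 6 semaphorins. Plxna1 was 761 in WT limb, 919 in the MyoD-null limb, 984 in the WT back and 1005 in the back array labelled Myf5-null. Plxna2, a partner of class 6 semaphorins, was 520, 371, 768 and 480 in that order, below its wild type in both mutants, by log2 ratios of -0.49 and -0.68. Plxna3, a partner for Sema3f signalling, went the other way, at 424, 696, 363 and 538, with 0.71 and 0.57. Plxna4, a partner for Sema3a signalling, was 644 in WT limb and 349 in the MyoD-null limb, against 395 and 359 in the back arrays. A second probe set of Plxna4 was also lower in the MyoD-null limb, under 100 against 171. No gene of the class was called in any comparison. Other probe sets of Plxna2 gave limb log2 ratios from 0.28 to 0.90, opposite to the brightest one, and back ratios from 0.05 to 0.80. The second probe set of Plxna3, at most 116, had a back ratio of -0.20, and that of Plxna4 one of 0.38, both opposite in sign to the brightest.

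Class B plexins receive mainly, but not only, class 4 semaphorins, and Plxnb2 is the most widely expressed of them in embryos. It was 2271 in WT limb and 2064 in the MyoD-null limb against 3392 in the WT back and 3615 in the back array labelled Myf5-null. Both back arrays were thus at least 1.49-fold above both limb arrays, the opposite regional order to its ligand Sema4c. Plxnb1 was 840, 801, 617 and 739 in the order WT limb, MyoD-null limb, WT back and labelled Myf5-null. Its second probe set was 452, 780, 584 and 682, which was 1.73-fold higher in the MyoD-null limb and put WT limb below WT back, at a log2 ratio of -0.37 against 0.44. The place of Plxnb1 among the members with both limb arrays above both back arrays thus rests on its brightest probe set, as does that of Nrp1.

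By brightest probe sets Plxnb3 was the one receptor that was called, and it was called in 3 comparisons. It was 429 in WT limb, 176 in the MyoD-null limb, under 100 in the WT back and 227 in the back array labelled Myf5-null. Relative to WT limb it was 2.44-fold lower in the MyoD-null limb. Relative to WT back it was at least 2.27-fold higher in the back array labelled Myf5-null and at least 4.29-fold higher in WT limb. The mutant arrays thus lay between the wild types, and all of these ratios rest on one low probe set. The second probe set reached 100 only in the MyoD-null limb, at 132.

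The window of Plxnb3 is shown because this receptor is another of the 6 members with CAGCTG. It lies on the plus strand at chrX:73756853-73757102 and holds 2 E-boxes, CAGCTG starting 152 bases and CAACTG 65 bases before the start site.
Plxnb3: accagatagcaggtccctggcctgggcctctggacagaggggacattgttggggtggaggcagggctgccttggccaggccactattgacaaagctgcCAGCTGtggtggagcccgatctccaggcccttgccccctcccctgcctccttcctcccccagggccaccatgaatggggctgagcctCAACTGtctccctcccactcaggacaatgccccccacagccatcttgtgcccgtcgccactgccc
Plxnb3 and Sema7a share the CAGCTG letters but differed in the limb pair, where Plxnb3 was lower and Sema7a higher in the mutant.

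Plxnc1, the receptor of Sema7a, was 431 in WT limb, 371 in the MyoD-null limb, 445 in the WT back and 319 in the back array labelled Myf5-null. It was below its wild type in both mutants, by log2 ratios of -0.22 and -0.48, where its ligand was above. Another probe set of Plxnc1 was 117 in the WT back and 327 in the back array labelled Myf5-null, a 2.79-fold ratio in the other direction. Yet another was 137 in WT limb and 174 in the MyoD-null limb, and under 100 in both back arrays. Plxnd1, the receptor of Sema3e, was 1433, 972, 892 and 1498 in the order WT limb, MyoD-null limb, WT back and labelled Myf5-null. It was thus lower in the MyoD-null limb, with a log2 ratio of -0.56, and higher in the back array labelled Myf5-null, with 0.75, and neither ratio was called. Plxna4os1, the antisense RNA at Plxna4, was under 100 in 3 arrays and 205 in the back array labelled Myf5-null, at least 2.05-fold higher than WT back.

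The limb pair and the back pair share no array, so their ratios can be set side by side. Called higher in both mutants were Sema3f and Sema7a, 2 of the 30 members tested in both pairs, where 0.224% of 13371 genes were called so. As medians over probe sets neither gene was called in either pair. Without shared-probe sets Sema3f was called in neither. Called lower in both were 0 members, against 0.239% of genes. Plxnb3 was lower in the MyoD-null limb and higher in the back array labelled Myf5-null, as were 0.613% of genes, and 0 members showed the reverse, against 0.165%. The sign of the ratio was the same in both pairs for 16 of 30 members (53.3%) and for 42.1% of all genes tested.

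**Figure D3:**
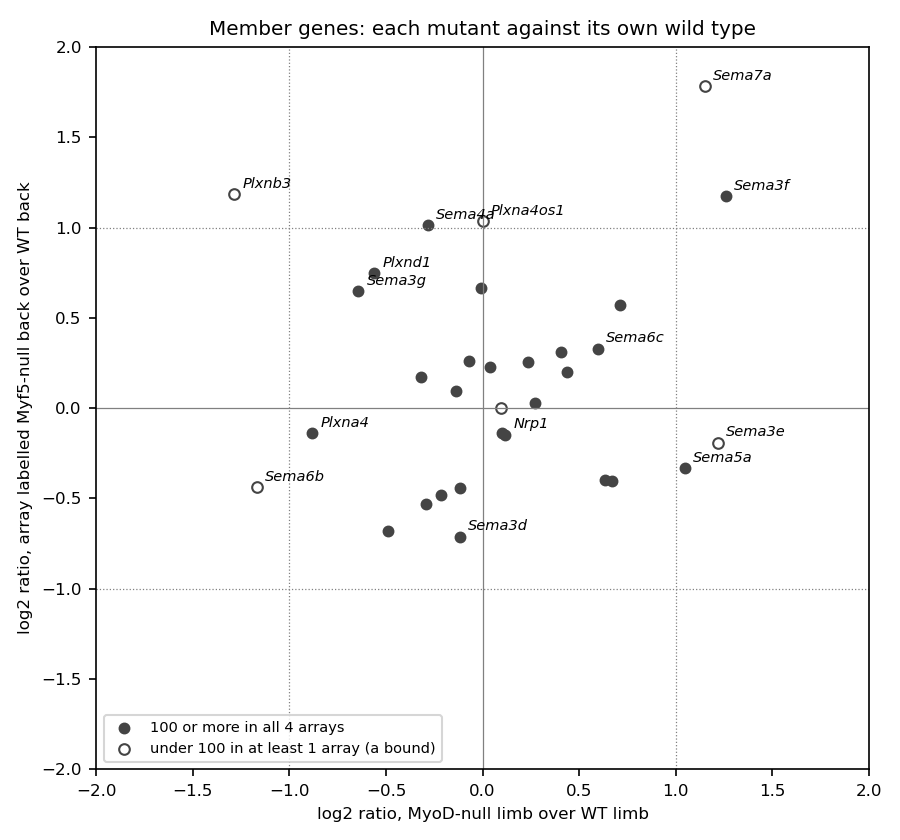
Each point is a member gene, with its log2 ratio in the MyoD-null limb over WT limb on the horizontal axis and in the back array labelled Myf5-null over WT back on the vertical axis. Dotted lines mark 2-fold, and open points were under 100 in at least 1 array, so that a ratio is a bound or, with both arrays under 100, is drawn at 0. Sema7a and Sema3f lie above 1 on both axes. Plxnb3 lies past 2-fold on both axes, at the upper left. Sema5a lies above 1 on the horizontal axis only, at -0.33 on the vertical axis.

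Probe sets of a member often disagreed, which bears on every ratio above. Among members with at least 2 probe sets at 200 or more in the limb pair, all such probe sets had one sign in 2 of 10, Plxnc1 and Sema4f, against 41.0% of 4444 genes. In the back pair this was so in 5 of 12 members against 44.3% of 4605 genes, and between the wild types in 3 of 12 against 44.7% of 4529. At the level of probe sets, 5 of 61 were called higher in the MyoD-null limb (8.20%, against 2.97% of all probe sets tested) and 5 lower (8.20%, against 5.62%). In the back pair 8 of 60 were called higher (13.3%, against 5.80%) and 0 lower, against 2.90%. In WT limb over WT back 7 of 63 were called higher (11.1%, against 5.54%) and 4 lower (6.35%, against 4.40%).

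**Figure D4:**
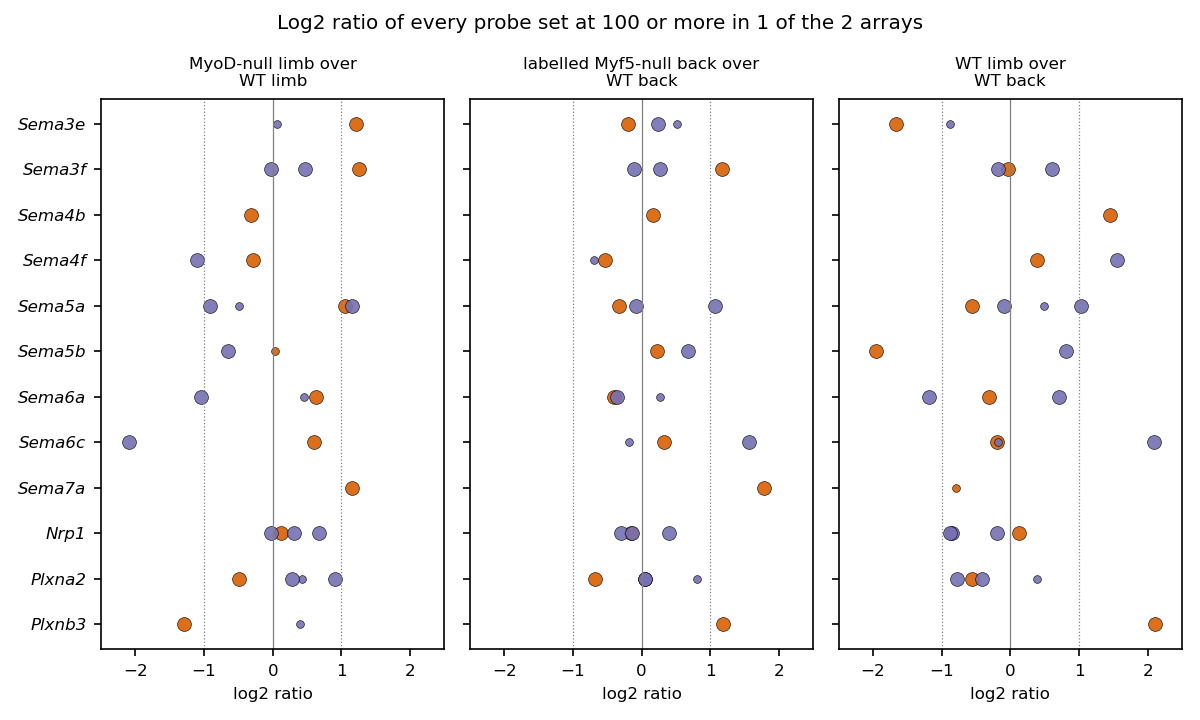
Log2 ratio of each probe set of 12 members in the 3 pairwise comparisons, for probe sets at 100 or more in either array. Orange points are the brightest probe set of the gene, purple points the others, and small points stayed under 200 in both arrays. The orange and a purple point of Sema5a lie together above 1 in the limb pair. Its other purple points there lie below 0, at -0.91 and -0.49. The orange and purple points of Sema3f, Sema6c and Plxnb3 lie apart.

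Partners of the receptors were read from a list of co-receptors and other binding proteins, 16 on the array. In the MyoD-null limb 1 of the 16 was called higher and 1 lower, against 2.30% and 5.19% of all genes, with a median log2 ratio of 0.09. The one higher was Itgb1, the integrin subunit through which Sema7a acts, at 1599 against 527, and the one lower Cd72, an immune receptor of Sema4d, under 100 against 244. In the back pair the same pair of genes had the opposite order: Itgb1 was 643 against 1446 in the WT back, and Cd72 was 319 against under 100. Mst1r, a receptor kinase that associates with B plexins, was also called higher there, at 278 against under 100, which makes 2 higher and 1 lower against 5.50% and 2.48% of all genes. Between the wild types 1 of 15 was called higher and 2 lower, against 5.30% and 3.50% of all genes. Cd72 was the higher one in limb, and Itgb1 and Nrcam were lower. Nrcam, an adhesion partner of neuropilin, was 137 in limb against 350 in back.

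Intracellular effectors were read from a second list, 27 on the array. Of these, 2 were called higher and 1 lower in the MyoD-null limb, 0 in either direction in the back pair, and 1 each way between the wild types. The shares of all genes called higher and lower were 2.30% and 5.19% in the limb pair, 5.50% and 2.48% in the back pair, and 5.30% and 3.50% between the wild types. Crmp1, a collapsin response mediator that relays Sema3a signals, was 232 in WT limb, 529 in the MyoD-null limb, 715 in the WT back and 768 in the back array labelled Myf5-null, so WT limb was the low array, as for Sema3e. Ranbp9, an adaptor reported to bind plexins, was 444, 1063, 807 and 426 in that order. Mical2, of the family of actin-oxidising enzymes downstream of plexins, was 215, under 100, 106 and 178. The medians were 0.06, -0.04 and 0.01 in the limb pair, the back pair and the wild types, close to 0 as for all genes. The listed genes Rhod and Pak1 were not analysed here.

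Markers of other cell types moved with the comparisons, and their part in the members' values was not tested. Skeletal muscle markers summed to 87642 in WT limb, 57504 in the MyoD-null limb, 167713 in the WT back and 109948 in the back array labelled Myf5-null. They were below 0 in 10 of 12 genes in the limb pair and in 12 of 12 both in the back pair and in WT limb over WT back. Nerve markers, such as neurofilament genes, were below 0 in 10 of 11 genes in WT limb over WT back, with sums of 2550 and 4523. Only Snap25 of that list was under 100 in every array. Macrophage markers were below 0 in 9 of 10 genes in WT limb over WT back, with sums of 5134 and 9364. Cartilage markers summed to 23283 in the WT back and 6385 in the back array labelled Myf5-null, with 9 of 10 below 0. Endothelial markers summed to between 6125 and 6698 in all 4 arrays. Schwann cell markers were above 0 in 6 of 8 genes in the limb pair, with sums of 3823 in WT limb and 4314 in the MyoD-null limb. They were below 0 in 6 of 8 in the back pair and in 7 of 8 in WT limb over WT back. Their sums were 5811 in the WT back and 4277 in the back array labelled Myf5-null. Skeletal muscle, nerve, macrophage and Schwann cell markers were thus mostly lower in WT limb than WT back, as were Sema3e, Sema5b and Crmp1. Skin markers summed to 17143 in WT limb and 9911 in the WT back, with 8 of 9 above 0, the same order as Sema4b and Sema4c. Endothelial markers were also above 0 in WT limb over WT back, in 7 of 10 genes. Red blood cell sums were 123192, 88806, 87431 and 136002 in the order WT limb, MyoD-null limb, WT back and labelled Myf5-null. Most of each sum was the Hbb-y signal, at 115330, 81483, 79867 and 128132. By sign, 5 of 7 red blood cell genes were below 0 in the limb pair and 3 of 6 in the back pair. Tendon and connective tissue sums were 97168, 87651, 104996 and 117741 in the same order of arrays. The 3 prime over 5 prime signal ratio of Gapdh, a sign of RNA or labelling quality, was 12.2, 8.06, 6.45 and 9.46 in that order. For Actb it was 6.88, 3.86, 3.20 and 4.28, so both also differed within each comparison. Relative to WT, both were lower in the limb pair and higher in the back pair, as was the brightest Plxnb3 probe set. The part of this in the members' values was not tested.

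RefSeq windows of GRCm38.p6 were used for 26 of the 32 members, 37 windows in all. Member windows on chromosome 18, where Sema6a lies, were left out. The windows of all genes were not filtered by chromosome. An E-box of the form CANNTG, which reads the same on both strands in this pattern, was in 19 of the 37 (51.4%), against 66.2% of 32851 windows of all genes. CAGCTG, which is itself one of those E-boxes, was in 6 of the 37 (16.2%), against 13.0% of all windows, and the 6 belonged to Plxnb3, Sema3g, Sema4d, Sema4g, Sema6c and Sema7a. The members' windows had a median G and C content of 64.0%, against 52.4% for all windows.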

How the data were processed

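The authors deposited 1 intensity per probe set and array on a linear scale, produced by MAS5 according to the submitters' processing notes; its version and scaling target are not given in these sources, and detection calls were not used here. RNA was extracted with Trizol and 6 µg was labelled, per the labels' protocols. The 2% trimmed means of the deposited columns lay between 1477 and 1479. Leaving out control probe sets, each array was scaled to a trimmed mean of 500, then floored at 100, and arrays were compared as log2 ratios. Of 45101 probe sets, 34945 had 1 gene symbol in the platform annotation and no control name. The probe set brightest on average over the arrays (mean of log2) stood for its gene. All member symbols matched RefSeq by Entrez number. With 1 array per group no test was run, the arrays of one region differing in genotype, and the number of arrays limits the precision. By rule every member is named, with all 4 values where its brightest probe set reached 200; other probe sets are given where a called member has them or signs disagree, except 1 dim probe set each of Sema3e and Sema6c, and pathway genes where called. The members and lists were chosen with earlier results of these data known. There were 8 alternatives: no rescaling, quantile normalization, loess (span 0.3), floors of 50 and 200, a pseudocount of 100, the median over probe sets, and no probe sets with the suffixes _a_at, _s_at and _x_at, of which _x_at marks probes that can match other genes and _a_at probes common to transcripts of one gene. The calling step was tested on simulated data. Promoter windows were the 250 bases before RefSeq start sites, searched in Python 3.11.15 with pandas 2.3.3. loess came from statsmodels 0.14.6. Background correction could not be varied, since only processed values were used. Some genes of the marker lists are not reported here.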

Additional observations from a re-analysis of the deposited data

Results flagged for a closer look

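Plxnb3 was called in opposite directions in the mutant comparisons, with a log2 ratio of -1.29 in MyoD-null limb over WT limb and 1.18 in the back array labelled Myf5-null over WT back. The second value is a bound, since WT back was under 100. The dimmer Sema6c probe set 1423454_a_at did the same, at -2.09 and 1.56, both of them bounds, while the brightest Sema6c probe set was above 0 in both pairs. In the limb pair the mutant also had lower 3 prime over 5 prime ratios of Gapdh and Actb than WT. In the back pair the array labelled Myf5-null had higher ones. Whether this bears on these calls was not tested. With 1 array per group the difference between the pairs was not tested.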

How the results depend on the processing

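Of 93 recomputed counts and medians, 77 stayed within 1.5 times of the reported count or within the spread between probe sets of the reported median. In MyoD-null limb the 4 members called higher became 2 with a floor of 200, 2 with a pseudocount of 100 and 0 as medians over probe sets, and the 2 called lower became 1, 0 and 1 under the same settings. In the back pair the 5 called higher became 3 after quantile normalization, 3 after loess, 2 with a floor of 200, 1 as medians over probe sets and 3 without shared-probe sets, and the 0 called lower became 2 (Sema3b and Sema6b) without rescaling. In WT limb over WT back the 3 called higher became 1 as medians over probe sets, and the 2 called lower became 1 with a floor of 200 and 0 as medians. Between both limb and both back arrays the 1 called lower became 0 as medians. The log2 ratio of Sema3f in MyoD-null limb over WT limb turned from 1.26 to -0.030 without shared-probe sets (suffixes _a_at, _s_at and _x_at). The split of calls over all genes depended on the scaling: in the limb pair 334 higher and 753 lower became 451 and 538 after quantile normalization, and in the back pair 808 and 364 became 519 and 516. Without rescaling they became 1129 and 2077, and 2087 and 1231, with the floor of 100 and the minimum of 200 applied to the larger deposited values. With a floor of 200 they became 115 and 181, and 152 and 123, and with a pseudocount of 100, 150 and 329, and 413 and 164. As medians over probe sets they became 178 and 428, and 491 and 203. The cause of these changes was not tested. Signals near 100 limit Sema3b, Sema3e, Sema6b, Sema7a, Plxnb3 and Plxna4os1. Loess was not run for both limb against both back arrays. No paired analysis was possible because each group has 1 array.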
